A study of Homo sapiens with 8 samples.

Results

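Among 19964 genes with a coding transcript in HEK293T cells, 67 had an mRNA with at least 30 ribo-seq reads on its 3′ UTR, summed over both arsenite libraries. For each gene the coding transcript with the most ribo-seq reads on its coding sequence (CDS) in control stood for the gene. HEK293T cells derive from human embryonic kidney and carry the large T antigen of SV40. Cells received 40 µM sodium arsenite, which causes oxidative stress, or vehicle for 30 min. Each treatment was profiled by ribo-seq and by mRNA-seq of poly(A)-selected RNA in 2 biological replicates, which gave 8 libraries of 1 cell line. On the chosen transcripts, control ribo-seq had 1900567 reads in replicate 1 and 7267975 in replicate 2. Arsenite ribo-seq had 1023767 and 3041892, so replicate 1 was the shallower in each treatment. Of 6 genes that mark HEK293T or its epithelial and neurofilament traits, each had CDS ribo-seq reads. Of 8 markers of other cell types, PTPRC, CD3E and HBA1 of blood and ALB and APOA1 of liver had 0 CDS reads in all 4 ribo-seq libraries, and PECAM1 of endothelium had 1 read in control replicate 1. The fibroblast collagens COL1A1 and COL3A1 had more, with 28 and 2 CDS reads in control replicate 1, 247 and 22 in control replicate 2, 16 and 1 in arsenite replicate 1 and 125 and 7 in arsenite replicate 2.

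Ribo-seq sequences the stretch of mRNA that a ribosome shields from nuclease. Elongating ribosomes leave the mRNA at the stop codon, so few footprints are usual beyond it. Reads on a 3′ UTR can come from readthrough of the stop codon, from ribosomes that were not recycled, from a second reading frame on the same transcript, from other isoforms, or from RNA held by other proteins or belonging to other RNAs of the same size. mRNA-seq reads come from random fragments and cover the 3′ UTR with the rest of the mRNA. Under arsenite, phosphorylation of eIF2 lowers the supply of initiator tRNA, and initiation falls on most mRNAs.

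The arsenite 3′ UTR reads chose the 67 mRNAs, and their values are therefore given as a description. The 67 mRNAs held 544 of 2049 3′ UTR ribo-seq reads in arsenite replicate 1 (26.5%, Wilson 95% interval 24.7 to 28.5) and 6276 of 22939 in replicate 2 (27.4%, 26.8 to 27.9). In control they held 420 of 1928 (21.8%, 19.999 to 23.682) and 5127 of 14801 (34.6%, 33.9 to 35.4). These intervals cover counting error only. Per 100 CDS reads, the 67 mRNAs together had 0.513 3′ UTR reads in control and 1.76 in arsenite of replicate 1, then 2.00 and 6.85 in replicate 2. The other 19897 genes had 0.0833 and 0.153, then 0.139 and 0.578. The ratio to CDS reads was thus higher in arsenite outside the 67 mRNAs too, 1.83-fold and 4.15-fold in replicates 1 and 2, beside 3.43-fold and 3.42-fold within them. The rule favours this direction in the members, since it asked for many reads in arsenite alone. In replicate 2 the value within the members was 2.44-fold without MTRNR2L1 and 3.68-fold without MTRNR2L1, CTC1 and PAQR5. These mRNAs were left out after the values were seen, and replicate 1 changed little without them. The near-equal values of both replicates within the members thus depended on a few mRNAs. Transcripts of 6217 genes with no coding transcript, rRNA left out, likewise took more of the ribo-seq reads in arsenite: 1.90-fold and 2.32-fold more per 1000000 reads on the chosen transcripts (RPM) in replicates 1 and 2. The part that these RNAs have in the 3′ UTR values was not tested. All these values are relative to libraries that consist mostly of CDS reads, and the paper reported a general fall of translation in arsenite. A higher relative value thus need not mean more 3′ UTR fragments per cell, which was not measured here.

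Most of the 67 mRNAs rest on few reads. In arsenite 59 of them had under 100 3′ UTR reads, and 21 had at least 10 reads in each arsenite library. In control replicate 1, 24 of them had 0 reads and in control replicate 2 only PPIA had 0. Where pairs of read numbers follow each other, the first pair is control and arsenite of replicate 1 and the next that of replicate 2. Just inside the threshold stood HIST1H4C with 30 reads and HSBP1 and SRP9 with 31 each. Just outside it stood ACTG1, ENSA and GAPDH with 29 each. RPM values were higher in arsenite in both replicates for 50 of the 67 mRNAs, in replicate 2 alone for 14, in replicate 1 alone for SNRPB and in neither for CTC1 and HMGN1. Of the 6922 genes with a 3′ UTR read in any ribo-seq library, most with very few, 11.2% were higher in both. The rule used the arsenite reads of this comparison, and nothing is read from the members' counts. Of the 25 mRNAs with at least 30 control reads, 13 were higher in both replicates, and of the 21 with at most 10 control reads, 17 were.

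**Figure D1:**
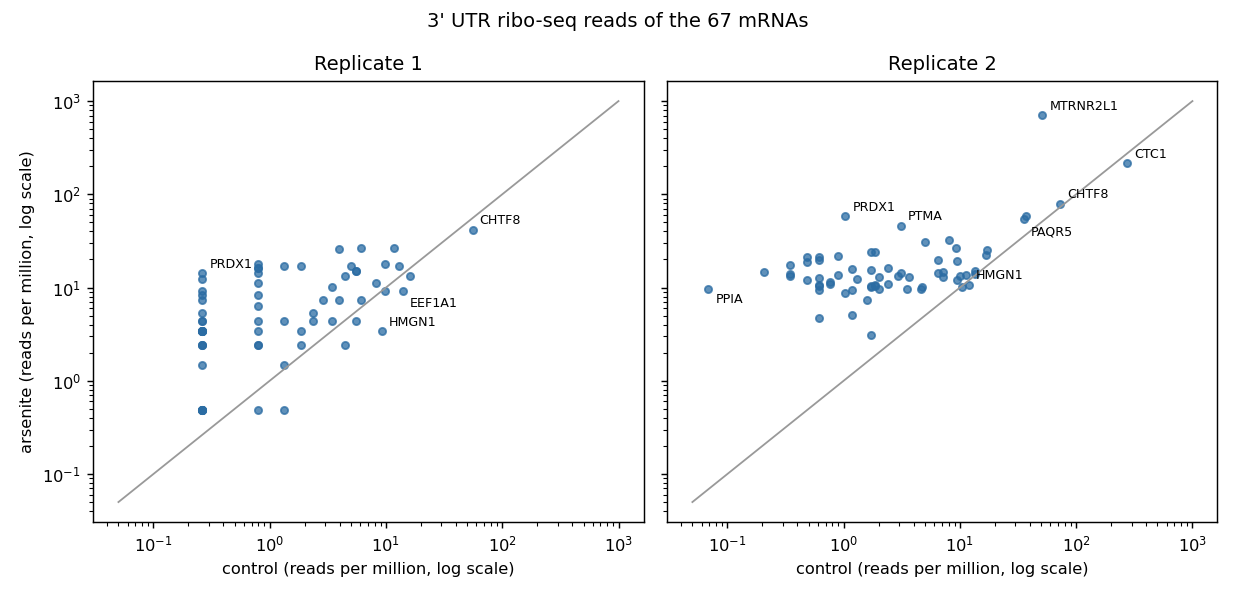
3′ UTR ribo-seq reads in RPM in control (x axis) and arsenite (y axis), both on a log scale with 0.5 reads added, for each of the 67 mRNAs (points) in replicate 1 and replicate 2. The line marks equal values, and most points lie above it, while CTC1 in replicate 2 and CHTF8 and HMGN1 in replicate 1 lie below it.

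The 67 mRNAs fell into those with more reads on the 3′ UTR than on the CDS in arsenite, which were 6, and those with fewer, which were 61. Among the 6 were MTRNR2L1, CTC1, CHTF8, PAQR5 and TMC5. Together they held 57 of the 544 member reads in arsenite replicate 1 and 3394 of the 6276 in replicate 2. The same 6 mRNAs had 111 reads in control replicate 1 and 3419 in control replicate 2. Their reads were thus present in control too, and nearly all of them came from replicate 2.

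MTRNR2L1, a nuclear gene whose sequence resembles that of the mitochondrial 16S rRNA, had the most reads. Its 3′ UTR held 3 reads in each treatment of replicate 1, and 372 in control and 2133 in arsenite of replicate 2. It had 0 CDS reads in all 4 ribo-seq libraries and 0 CDS reads in all 4 mRNA-seq libraries. mRNA-seq put 7 and 4 reads on its 3′ UTR in control and arsenite of replicate 1, and 389 and 392 in replicate 2. The large difference between treatments thus stood in ribo-seq of replicate 2 alone. Reads of the near-identical mitochondrial RNA cannot be told apart from those of MTRNR2L1 here. Without MTRNR2L1, the remaining members held 26.4% of 3′ UTR reads in arsenite replicate 1 and 18.1% in replicate 2.

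CTC1, a subunit of the CST complex that maintains telomeres, was lower in arsenite of replicate 2. Its 3′ UTR held 0 reads in both ribo-seq libraries of replicate 1, and 1978 in control and 659 in arsenite of replicate 2. Its CDS held 195 and 72 reads in those replicate 2 libraries, so the ratio was 1014 and 915 3′ UTR reads per 100 CDS reads. mRNA-seq gave no such excess, with 213 and 202 reads on the 3′ UTR against 354 and 368 on the CDS in replicate 2. The current RefSeq annotation places the tRNA genes TRT-AGT1-2, TRS-AGA2-6 and TRI-AAT4-1 within the CTC1 locus. Their strand was not considered. Whether the reads lie on them was not tested, because the counts give no position within the 3′ UTR.

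PAQR5, a membrane progestin receptor, had 0 reads in replicate 1 and 258 in control and 163 in arsenite of replicate 2. Its CDS held 19 and 4 reads in replicate 2, and mRNA-seq put 324 and 349 reads on its 3′ UTR there. TMC5, a transmembrane channel-like protein, had 1 read in control and 11 in arsenite of replicate 1, then 11 and 22 in replicate 2. It had at most 8 CDS reads in any ribo-seq library and at most 15 mRNA-seq reads on its 3′ UTR. For PAQR5 and TMC5 the 3′ UTR reads thus stood on transcripts with few CDS reads in any ribo-seq library. RefSeq places a snoRNA gene (LOC124900368) within the PAQR5 locus and a U4 snRNA pseudogene (RNU4-46P) within that of TMC5, their strand not being considered.

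CHTF8, a part of the clamp loader that takes part in sister chromatid cohesion, held the most 3′ UTR reads of all members in replicate 1. Its 3′ UTR held 105 reads in control and 42 in arsenite of replicate 1, then 529 and 240 in replicate 2. The CDS held 23, 2, 93 and 47 reads in the same order. Per 100 CDS reads this came to 457 3′ UTR reads in control and 2100 in arsenite of replicate 1, the latter over 2 CDS reads, and to 569 and 511 in replicate 2. The ratio was thus higher in arsenite in one replicate and lower in the other. In mRNA-seq of replicate 2 the 3′ UTR held 1683 and 1900 reads and the CDS 241 and 271. mRNA-seq thus also had more reads on the 3′ UTR of CHTF8 than on its CDS, in control and arsenite alike. RefSeq places another protein-coding gene, DERPC, on the same strand over the same locus.

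Genes for small structured RNAs (tRNA, snRNA, snoRNA, rRNA, 7SL or their pseudogenes) overlap the loci of 12 of the 67 members (17.9%) in RefSeq (GRCh38.p14), and of 1907 of all 19009 genes matched (10.03%). Another protein-coding gene on the same strand overlaps the loci of 3 members (4.48%), CHTF8, GABARAP and RPP14, and of 641 of all genes (3.37%). The overlap is with the whole locus, introns included, and for the small RNA genes it is with either strand. The authors kept only reads that mapped to the strand of the transcript. Which of the small RNA genes lie on that strand was not tested. RPP14, a subunit of RNase P, comes from a transcript that also encodes the mitochondrial dehydratase HTD2 downstream. Its 3′ UTR held 24 reads in control and 17 in arsenite of replicate 1, then 68 and 58 in replicate 2. The CDS held 66, 21, 133 and 61 reads, so the 3′ UTR of RPP14 carried reads in number close to its CDS in both arsenite libraries. GABARAP, which takes part in autophagosome formation, had 2 and 4 reads and then 122 and 67.

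**Figure D2:**
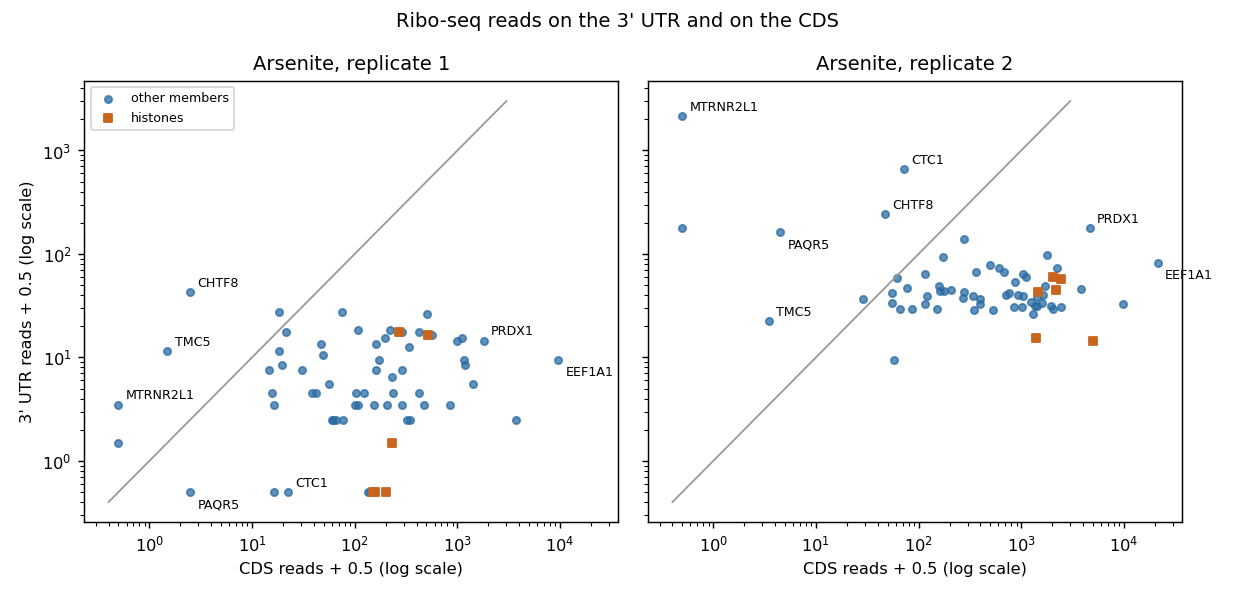
Ribo-seq reads on the CDS (x axis) and on the 3′ UTR (y axis) in arsenite, both on a log scale with 0.5 reads added, for the 67 mRNAs in replicate 1 and replicate 2, with histone mRNAs as squares. The line marks equal numbers, above which lie MTRNR2L1, CTC1, CHTF8, PAQR5, TMC5 and, narrowly, ARMCX6, among others, in replicate 2, while the histone mRNAs lie far below it.

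Among the 61 other members were mRNAs of ribosomal proteins, translation factors, splicing proteins and histones. Among genes with at least 1 CDS read in any library, 66 of 15905 (0.415%) were members, MTRNR2L1 having none. Members made up 5 of 85 measured mRNAs of cytosolic ribosomal proteins (5.88%) and 5 of 63 of translation factors (7.94%). They made up 3 of 29 of listed hnRNP and SR proteins (10.3%) and 6 of 57 of replication-dependent histones (10.5%). The hnRNP list missed HNRPDL, an older symbol of HNRNPDL and a member with 45 reads, so its count is too low. The number of reads on an mRNA enters the rule directly, and the members had a median of 609 CDS reads in arsenite replicate 2, beside 102 in the 10291 genes with a mean of at least 10 CDS reads. None of the 79 measured heat shock protein and chaperonin mRNAs and none of the 24 tubulin and actin mRNAs was a member. None of the 35 immediate-early mRNAs was, and of the 13 mRNAs that the study had named on these samples as resistant to arsenite or as candidates for it none was. This last list is not independent of these libraries.

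PRDX1, a peroxiredoxin that reduces hydrogen peroxide, had the most reads among mRNAs with a well covered CDS. Its 3′ UTR held 0 reads in control and 14 in arsenite of replicate 1, then 7 and 176 in replicate 2. The CDS held 3769 and 1799 reads, then 11097 and 4651. In RPM the CDS had 1983 in control and 1757 in arsenite of replicate 1, then 1527 and 1529, and the 3′ UTR 0 and 13.7, then 0.963 and 57.9. The 3′ UTR reads of PRDX1 were thus almost all in arsenite, while its CDS level in RPM was similar in both treatments. mRNA-seq put 318 and 310 reads on its 3′ UTR in replicate 1 and 3833 and 3881 in replicate 2. For PRDX1 the RNA level had a log2 change of -0.12 (SE 0.05, adjusted p = 0.159 by edgeR) and the translation efficiency (TE) one of 0.01 (SE 0.14, adjusted p = 0.975 by edgeR).

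PPIA, the prolyl isomerase cyclophilin A, had 0 3′ UTR reads in both control libraries and 12 and 29 in arsenite replicates 1 and 2. UQCR10, a subunit of respiratory complex III, had 0 and 4, then 3 and 64. SUMO2, which is attached to lysines of other proteins, had 0 and 3, then 6 and 66. In these mRNAs both arsenite libraries lay above their control, and the reads rest mainly on replicate 2.

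Among RNA-binding proteins, SRSF3, a splicing factor of the SR family, had 0 reads in control and 8 in arsenite of replicate 1, then 13 and 72 in replicate 2. RBM3, a cold-induced RNA-binding protein, had 7 and 26, then 8 and 48. SF1, which acts in the recognition of introns, had 18 and 9 reads and then 73 and 40, in RPM 9.47 and 8.79, then 10.04 and 13.1. SNRPB, a core protein of the spliceosome, had 10 and 15 reads and then 75 and 30, in RPM 5.26 and 14.7, then 10.3 and 9.86. In RPM, SRSF3 and RBM3 were thus higher in arsenite in both replicates, SF1 in replicate 2 alone and SNRPB in replicate 1 alone. HNRNPA2B1, an hnRNP protein, had 1 and 2 reads and then 13 and 32. The 9 RNA-binding and splicing mRNAs together had 21.6 RPM on the 3′ UTR in control and 82.0 in arsenite of replicate 1, then 40.6 and 128 in replicate 2.

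Of the ribosomal protein mRNAs, RPL41 had 18 reads in each treatment of replicate 1, and 58 in control and 97 in arsenite of replicate 2. RPL39 had 1 and 18 and then 12 and 72, and RPS29 had 9 and 17 and then 4 and 38. All 5 ribosomal protein mRNAs were higher in arsenite in both replicates, with sums of 15.8 and 70.3 RPM in replicate 1 and 12.8 and 91.7 RPM in replicate 2. Of the translation factors, EEF1A1, which brings aminoacyl-tRNA to the ribosome, had 26 and 9 reads and then 67 and 81. EIF4A2, an RNA helicase of initiation, had 0 and 2 and then 36 and 93. EIF1, which acts in start codon selection, had 7 and 7 and then 124 and 77. EIF4H, which stimulates the helicase eIF4A, had 0 and 2 and then 12 and 30. Many of these genes have processed copies elsewhere in the genome, and reads shared with copies that are not RefSeq transcripts cannot be told apart.

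The histone members were HIST1H4C, HIST1H4D, HIST1H4E, HIST1H4H, HIST1H2BD and HIST1H2BK, which encode core histones. Together they had 4 3′ UTR reads in control and 34 in arsenite of replicate 1, then 22 and 231 in replicate 2. Per 100 CDS reads this was 0.0520 and 2.24 in replicate 1 and 0.0707 and 1.59 in replicate 2. HIST1H4E had 0 and 1 reads and then 4 and 59. HIST1H4H had 0 in each treatment of replicate 1 and then 3 and 57. HIST1H4D had 0 in each and then 1 and 44, and HIST1H2BD 0 in each and then 2 and 42. HIST1H2BK had 3 and 17 and then 8 and 15, and HIST1H4C had 1 and 16 and then 4 and 14. The histone mRNAs thus split into those with reads in replicate 2 alone or nearly so and those with reads in both replicates. Replication-dependent histone mRNAs mostly end in a stem-loop without a poly(A) tail. The poly(A)-selected mRNA-seq held few CDS reads of these members beside ribo-seq. HIST1H4D, the lowest, had at most 12 CDS reads in any mRNA-seq library beside 5104 CDS ribo-seq reads in control replicate 2. The 3′ UTR of HIST1H2BK had more, with 760 and 817 mRNA-seq reads in control and arsenite of replicate 2. Histone genes are also near-identical copies, of which the deposited counts keep only reads that mapped to 1 gene.

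Among other nuclear proteins, PTMA, which encodes prothymosin alpha, had 2 reads in control and 17 in arsenite of replicate 1, then 22 and 140 in replicate 2. HMGN2, a nucleosome-binding protein, had 0 and 7 and then 4 and 64. Its paralog HMGN1 had 17 and 3 and then 86 and 32 reads, which in RPM was 8.94 and 2.93, then 11.8 and 10.5. NUCKS1, a nuclear DNA-binding protein, had 0 and 3 and then 13 and 31. HMGN2 was thus higher in arsenite in both replicates, while HMGN1 was lower in replicate 1 and differed little in replicate 2.

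**Figure D3:**
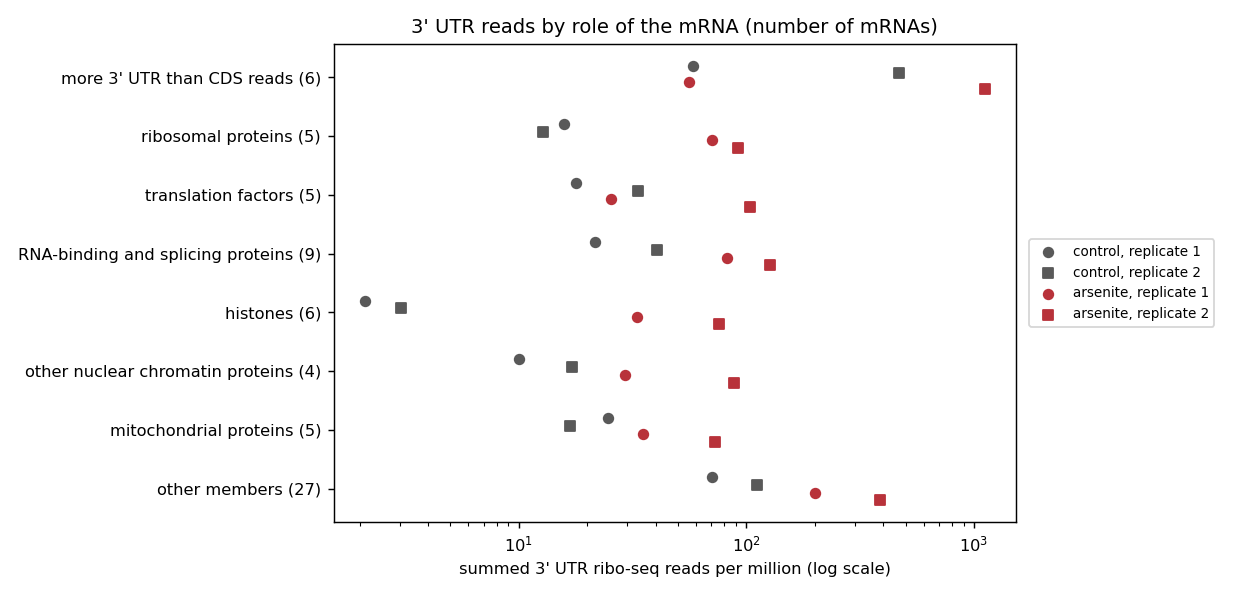
Summed 3′ UTR ribo-seq reads in RPM (x axis, log scale) of the 67 mRNAs grouped by role after their values were seen, with the number of mRNAs in each group, in control (grey) and arsenite (red) of replicate 1 (circles) and replicate 2 (squares). Arsenite lies above control in each replicate in every group but the top one, where replicate 1 gave 58.4 in control and 55.7 in arsenite.

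To set the 3′ UTR reads against the RNA that is there, the ratio of ribo-seq to mRNA-seq reads on the 3′ UTR was divided by the same ratio on the CDS. At 100% the 3′ UTR would carry as many ribo-seq reads per mRNA-seq read as the CDS. Over the 67 mRNAs the median was 0.921% in control and 3.67% in arsenite of replicate 1, then 0.807% and 6.08% in replicate 2. Over the 10291 genes with a mean of at least 10 CDS reads it was 2.82% and 5.33%, then 0.547% and 1.78%. The median gene there had 0 3′ UTR reads in each ribo-seq library, so the 0.5 reads added to each count weigh on these values. The value was below 10% in arsenite for 48 of 67 mRNAs and above 100% for the same 6, MTRNR2L1, CTC1, CHTF8, PAQR5 and TMC5 among them (mean of both replicates). MTRNR2L1 had no CDS read in any library, so its value sets the 3′ UTR against the 0.5 reads added to each count and says nothing of its CDS. It was above 100% in each arsenite replicate for 2 mRNAs, of which TMC5 had few mRNA-seq reads. The next highest were RPS29 with 67.5%, MED19, a Mediator subunit, with 52.9%, EIF4A2 with 49.4% and ARMCX6 with 34.9%. RPS29 rests on replicate 1, with 129% there and 6.25% in replicate 2, and MED19 had 90.03% and 15.8%. In EIF4A2 the value was 7.64% and 91.3%. RefSeq places the 7SL gene RN7SL1 within the RPS29 locus and snoRNA genes, SNORA63 and SNORD2 among them, within that of EIF4A2. Their strand was not considered, and whether the reads lie on them was not tested. The lowest were NUCKS1 with 0.301%, HNRNPA2B1 with 0.348%, SRP9, a subunit of the signal recognition particle, with 0.700%, RPL41 with 0.780% and EIF4H with 0.919%. On mRNAs such as NUCKS1, whose 3′ UTR gave 27649 mRNA-seq reads in arsenite replicate 2, a large amount of 3′ UTR thus yielded 31 ribo-seq reads.

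**Figure D4:**
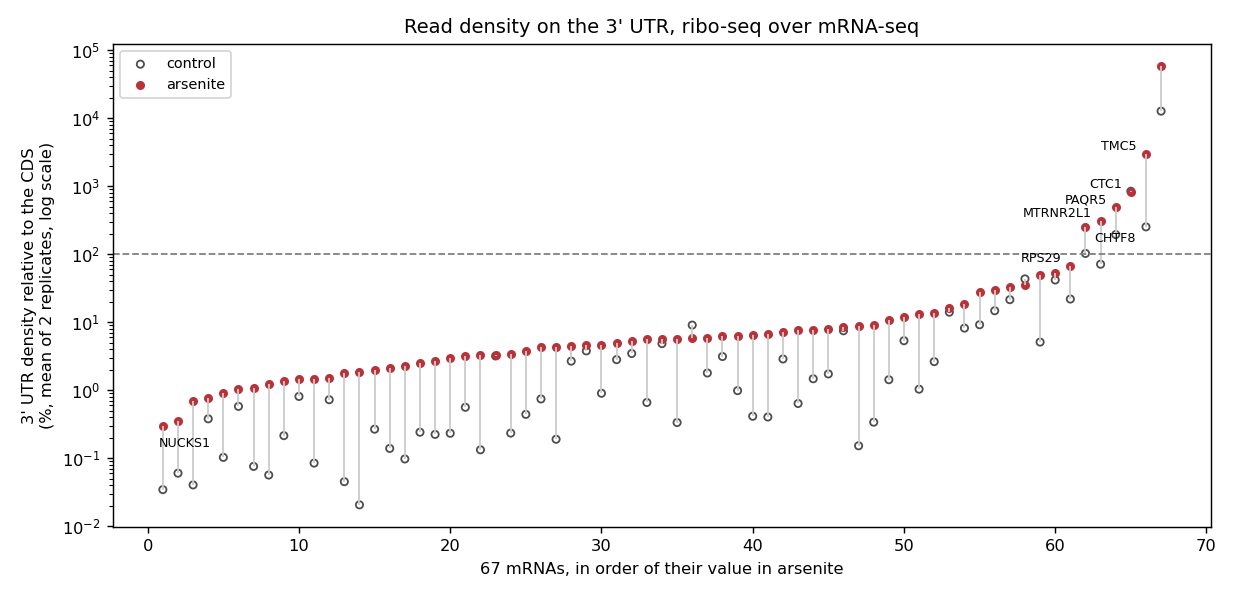
Ribo-seq reads per mRNA-seq read on the 3′ UTR as a percentage of the same ratio on the CDS (y axis, log scale, mean of 2 replicates, 0.5 reads added), in control (open circles) and arsenite (filled circles), for the 67 mRNAs in order of their arsenite value (x axis). Of the 67, 6 lie above the dashed line at 100% in arsenite, MTRNR2L1 among them through the added reads alone on its CDS, and 48 lie below 10%.

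The part of an mRNA's mRNA-seq reads that lay on the 3′ UTR is given as a description, since a member needs a 3′ UTR that can hold reads. The median was 47.99% and 59.0% of a member's mRNA-seq reads in control replicates 1 and 2, and 47.3% and 59.4% in arsenite. In genes with a mean of at least 10 CDS reads, it was 25.9% and 36.8% in control and 25.9% and 36.6% in arsenite. Lengths of the 3′ UTR and CDS were not used here.

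Which transcript stands for a gene could decide whether its 3′ UTR holds reads. Of the 67 members, 33 had 1 coding transcript and 34 had more, and in 21 of these 34 every coding transcript had the same number of 3′ UTR reads in arsenite. For 3 members the reads depended on the transcript, in that another coding transcript with at least 90% of the reads had under 30 on its 3′ UTR. These were SF1, with 49 on the chosen transcript and 7 on another, SNRPB with 45 and 3, and HIST1H2BD with 42 and 1. Another 5, CDC42, DCTN5, RPS29 and SERF2 among them, had under 30 on a transcript that held fewer of their reads. In no member did another transcript have more CDS reads in arsenite. In all, that other transcript held 2749 reads beside 2840 on the chosen one in SF1, 3437 beside 3615 in SNRPB and 1653 beside 1694 in HIST1H2BD. On the CDS it held 2721 beside 2770, 3405 beside 3541 and 1619 on both. In these 3 members the other transcript thus had fewer reads in all and no more reads on its CDS. In some members another coding transcript had more 3′ UTR reads in arsenite than the chosen one. It had 491 beside 31 in SRP9, 156 beside 68 in UQCR10 and 75 beside 36 in C7orf49. In URM1 it had 70 beside 31 and in DCTN5 59 beside 47. The place of SRP9 at the threshold and its low density are those of the chosen transcript.

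mRNAs known for a decoding event at a stop codon, or for a protein bound to the 3′ UTR, were looked up by list. Of all measured genes only 0.415% were members, so the absence of members from lists this short says little about them. None of the 21 measured selenoprotein mRNAs, which decode UGA as selenocysteine, was a member. Control replicates 1 and 2 held 3 and 30 3′ UTR reads of them, arsenite 3 and 50. None of the 12 measured mRNAs with reported stop codon readthrough was a member, and control replicates 1 and 2 held 30 and 49 reads of them, arsenite 13 and 54. Of these, LDHB, a lactate dehydrogenase subunit, had 24 and 10 reads in control, arsenite giving 11 and 16, and AMD1, which makes decarboxylated S-adenosylmethionine for polyamine synthesis, had 1 and 25 in control, then 0 and 24 in arsenite. The 8 measured mRNAs with an iron-responsive element, the binding site of iron regulatory proteins, gave no member either, control holding 1 and 4 reads of them, arsenite 0 and 6. TFRC, the transferrin receptor, whose elements lie in the 3′ UTR, had 0 and 2 reads in control, then 0 and 5 in arsenite.

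Measures that did not choose the members were tested in edgeR by quasi-likelihood across all genes, with the replicate as a block. Reads on the CDS come from the same arsenite libraries as the 3′ UTR reads that made the choice. In RNA level, 13 of 66 members tested changed, beside 5.45% of all 12572 genes tested. SF1 alone rose, and 12 fell, beside 3.58% of genes that rose and 1.87% that fell. The median log2 change was -0.10 in the members and -0.01 in all genes. PPIA had 584 mRNA-seq reads on its CDS and 1246 on its 3′ UTR in control of replicate 1, and 484 and 810 in arsenite. In replicate 2 these were 2859 and 2820 in control and 2877 and 2833 in arsenite. PPIA fell by 0.28 on the log2 scale (SE 0.05, edgeR adjusted p = 1.4e-05), with -0.46 and -0.17 within replicates 1 and 2. RPL41 fell by 0.24 (SE 0.05, edgeR adjusted p = 8.62e-05). Falls of 0.21 to 0.17 were called for TOMM7 and POLR2L, for the heat shock factor binding protein HSBP1, for the ribosomal proteins RPS28 and RPS29, for the respiratory chain subunits COX7C and UQCR10, and for CALM2, UBL4A and SZRD1. SF1 rose by 0.19 (SE 0.05, edgeR adjusted p = 0.0063). These changes were small, and DESeq2 called 1 of the 66, while 18 had no adjusted p there. Without the replicate block 0 were called, and 0 had an unadjusted p under 0.05. With any 1 of the 4 mRNA-seq libraries left out, the fit had no replicate block, so the difference between replicates entered it. The change of POLR2L then ranged from -0.93 to 0.55, and those of RPL41, SF1 and UQCR10 also took both signs. Within replicates 1 and 2 the change was -0.31 and -0.14 for POLR2L and -0.30 and -0.18 for RPL41. It was 0.15 and 0.23 for SF1 and -0.08 and -0.21 for UQCR10.

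Occupancy of the CDS relative to all mRNAs changed in 6 of 63 members tested (2.92% of all 10291 genes). It rose in 5 (1.53% of all genes) and fell in 1 (1.4%). COX7A2, a subunit of respiratory complex IV, had 108 CDS reads in control and 235 in arsenite of replicate 1, then 846 and 527 in replicate 2. Relative to all mRNAs it rose by 1.20 on the log2 scale (SE 0.24, edgeR adjusted p = 0.00989), with 2.00 and 0.55 in the replicates. HMGN2 had 90 and 162 CDS reads and then 193 and 116, and rose by 1.10 (SE 0.25, edgeR adjusted p = 0.021). TSC22D3, a leucine zipper protein induced by glucocorticoids, had 106 and 153 and then 1053 and 756, and rose by 1.04 (SE 0.20, edgeR adjusted p = 0.00593). RPL39 had 226 and 222 and then 870 and 609, and rose by 0.78 (SE 0.18, edgeR adjusted p = 0.0222). RPL41 had 97 and 108 and then 2777 and 1784, and rose by 0.77 (SE 0.19, edgeR adjusted p = 0.031). EEF1A1 had 31158 and 9565 and then 87822 and 21438, and fell by 0.81 (SE 0.18, edgeR adjusted p = 0.02). The changes are relative to all mRNAs in the same library, and the arsenite libraries were the shallower in each replicate. DESeq2 called 3 of the 63, COX7A2, TSC22D3 and EEF1A1, while 11 had no adjusted p there, and without the replicate block 0 were called. With any 1 of the 4 ribo-seq libraries left out, the fit likewise had no replicate block. The change then ranged from -0.10 to 2.19 for HMGN2 and from -0.86 to 2.59 for RPL41. Within replicates 1 and 2 it was 1.73 and 0.50 for HMGN2 and 1.04 and 0.60 for RPL41.

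TE, the CDS occupancy relative to the RNA level, changed in 4 of 62 members tested, beside 2.28% of all 10273 genes. RPL41 rose by 0.99 (SE 0.17, edgeR adjusted p = 0.0291), TSC22D3 by 0.92 (SE 0.20, edgeR adjusted p = 0.049) and RPL39 by 0.87 (SE 0.16, edgeR adjusted p = 0.0332), beside 1.09% of all genes that rose. EEF1A1 fell by 0.78 (SE 0.11, edgeR adjusted p = 0.0183), beside 1.19% that fell. The median log2 change in TE was 0.02 in the members and -0.01 in all genes, and 33 of 62 were above 0. The rise of TSC22D3 lay closest to the threshold, and its edgeR adjusted p was 0.0651 with upper-quartile scaling, 0.0576 with a mean of at least 50 counts and 0.0516 with transcripts chosen by mRNA-seq reads. When TE used mRNA-seq reads of the CDS, EEF1A1 alone was called. Without the replicate block 0 were called. With any 1 mRNA-seq library left out 0 were called, and with any 1 ribo-seq library left out 28 or 31 were, since the spread then came from the mRNA-seq libraries alone.

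Reads on the 5′ leader relative to the CDS were testable in 25 members. The shift passed the test in 0 of 25, beside 0.16% of all 625 genes tested. By edgeR 5 of the 25 had an unadjusted p under 0.05, beside 124 of the 625 genes (19.8%), and by DESeq2 0 passed and 2 had one, beside 44 of the 625 (7.04%). In 23 of 25 the leader share was higher in arsenite, with a median log2 shift of 0.85, beside 0.78 over all genes. With any 1 ribo-seq library left out, the fit again had no replicate block, so the difference between replicates entered it. These fits thus cannot tell whether the direction rests on single libraries. Without arsenite replicate 2 the median was -1.12, with 6 of 21 above 0, and without control replicate 1 it was -0.08, with 12 of 27 above 0. Without arsenite replicate 1 it was 1.89 and without control replicate 2 it was 2.40. Over all genes the median was also below 0 without arsenite replicate 2, at -0.43, and above 0 in the other such fits. Within each replicate the shift was above 0 in most of the 25 members. Replicate 1 had few leader reads, with a median of 0 over the 67 members in control and in arsenite. HSBP1 had a shift of 1.61 (SE 0.56, edgeR adjusted p = 0.22) and PTMA one of 1.45 (SE 0.54, edgeR adjusted p = 0.223). RPL39 had one of -1.10 with an edgeR adjusted p = 0.23. The leader of PTMA held 2 reads in each treatment of replicate 1 and 603 and 526 in replicate 2, so its value rests on replicate 2. The difference between the members' leader shift and that of all genes was not tested.

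In mRNA-seq the balance of 3′ UTR and CDS reads did not pass the test in any of 61 members (0% of 10626 genes). By edgeR 3 of the 61 had an unadjusted p under 0.05, beside 304 of all genes (2.86%), and by DESeq2 0 passed and 0 had one, beside 1 of all genes. The median log2 shift was -0.01 in the members and -0.01 in all genes. With 1 mRNA-seq library left out, and thus no replicate block, it ranged from -0.46 to 0.37 in the members. In all genes it then ranged from -0.43 to 0.41. With all libraries, the shift of PRDX1 was 0.00 with an SE of 0.11. That of PTMA was -0.18 with an SE of 0.13 and that of SRSF3 -0.03 with an SE of 0.10. The mRNAs whose 3′ UTR ribo-seq reads were nearly all in arsenite thus had mRNA-seq reads on the same 3′ UTRs in both treatments.

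**Figure D5:**
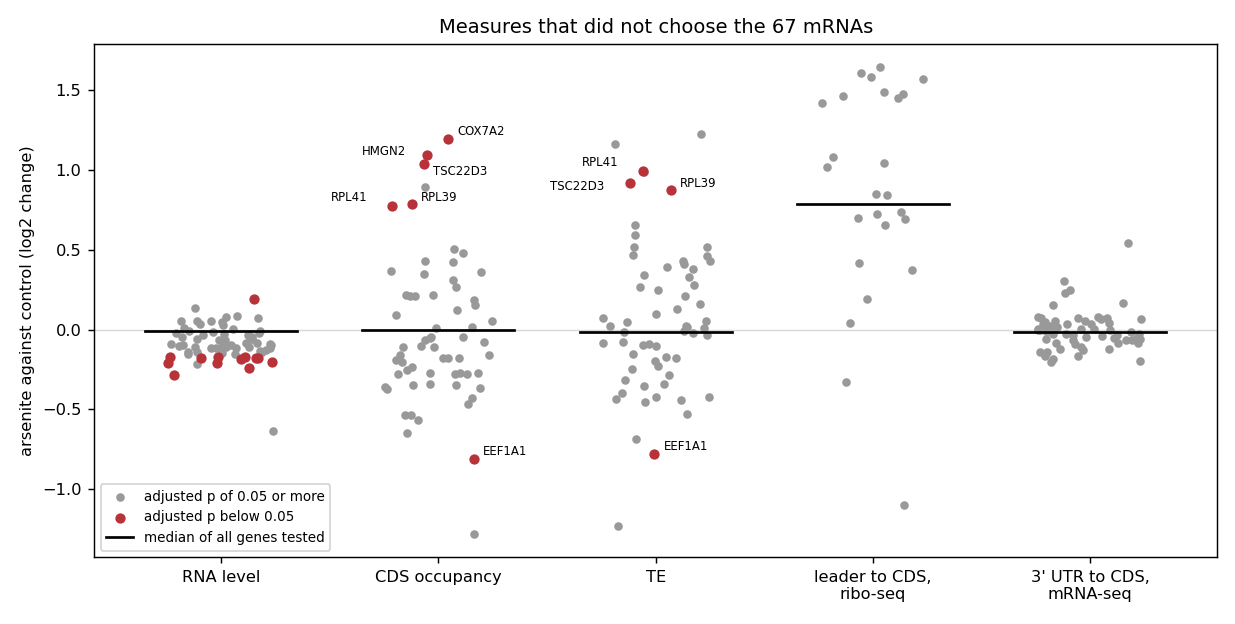
Log2 change or shift, arsenite against control, of the members tested (points) in 5 measures: RNA level, CDS occupancy, TE, leader to CDS balance of ribo-seq reads and 3′ UTR to CDS balance of mRNA-seq reads. Red points passed an edgeR adjusted p of 0.05 and black lines mark the median of all genes tested, which is 0.78 for the leader and near 0 for the others.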

How the data were processed

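The deposited values are raw counts of reads per RefSeq transcript, and per 5′ leader, CDS and 3′ UTR of coding transcripts. Per the methods, the authors removed adapters with cutadapt, aligned with Bowtie 1.0.0, dropped reads matching several genes, and assigned ribo-seq reads of footprint length to their A-site. The genome build is not given in the sources used here. Region counts summed to the total in all 35851 coding transcripts. The members and lists were chosen with earlier results of these data known. Named are the members with the most reads, the highest and lowest densities, those at the threshold, on the lists, called in a test, or higher in neither replicate, as well as members placed by role after their values were seen.

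Tests used edgeR 4.0.16 (R 4.3.3) with TMM, a mean of at least 10 counts, Benjamini-Hochberg adjustment over all genes and a threshold of 0.05. DESeq2 1.42.0, upper-quartile scaling, other filters, read regions, transcripts and left-out libraries were alternatives. The replicate was a block, since the replicates differed in adapters and sequencing. Deviations from the group means correlated within a replicate at 0.664 in ribo-seq and 0.676 in mRNA-seq. With 2 replicates per group and the replicate as a block, p-values rest on how far the change differed between 2 replicates. The fit shares information on this spread over genes. Densities used a pseudocount of 0.5. On simulated counts with log2 changes of 2, 196 of 200 changed genes were recovered for RNA level among 12488 genes, with 15 false calls. For TE it was 157 of 200 among 10262, with 13 false calls, and for the leader shift 36 of 62 among 568. The changes called in members were smaller than those simulated, and the simulated spread was fixed. Recovery of changes as small as those in RNA level was thus not shown. The values of 1 member are not reported here. Gene names and neighbours came from RefSeq tables. Values were computed with Python 3.11.15, numpy 2.4.6, pandas 2.3.3 and scipy 1.17.1, and drawn with matplotlib 3.10.9.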

Additional observations from a re-analysis of the deposited data

How the results depend on the processing

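The threshold set the number of members: 149 at 20 reads, 31 at 50 and 25 at 10 in each arsenite library. Choosing transcripts by their mRNA-seq reads gave 93 members, 66 of them shared, which held 38.7% of 3′ UTR reads at a median density of 7.52% and a median arsenite to control ratio of 2.01, beside 27.0%, 4.88% and 4.46 as reported (means of the replicates). The transcript with the most arsenite reads gave a share of 30.8%. Over members with at least 10 reads in each ribo-seq library the density was 14.8% and the ratio 1.56. Leaving out MTRNR2L1, or MTRNR2L1, CTC1 and PAQR5, chosen after seeing the data, gave shares of 22.2% and 20.4%. With 1 replicate left out the ratio was 3.09 to 5.83. Without the replicate block 0 members were called in RNA level, CDS occupancy and TE. DESeq2 called 1 in RNA level and 3 in CDS occupancy. mRNA-seq reads on the 3′ UTR alone left 2 calls in RNA level, mRNA-seq CDS reads alone left 1 in TE, and no filter gave 11 in TE. With 1 library left out, the calls were 0 to 2 in RNA level, 0 to 0 in CDS occupancy and 0 to 31 in TE, where leaving out a ribo-seq library leaves the spread to the mRNA-seq libraries alone. In RNA level and CDS occupancy these fits had no replicate block, so the difference between replicates entered them. The log2 changes in RNA level then ranged from -0.93 to 0.55 for POLR2L and -0.56 to 0.14 for RPL41. For SF1 they ranged from -0.017 to 0.42 and for UQCR10 from -0.55 to 0.31. Those in CDS occupancy ranged from -0.10 to 2.19 for HMGN2 and -0.86 to 2.59 for RPL41. The cause was not tested for the others. The depth of replicate 1 limits members with few reads.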
